A study of Mus musculus with 26 samples.

Results

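The comparison described here is of ozone (O3) inhaled for 48 hr against filtered air in the lungs of Il10-/- mice. Its 7 arrays were chosen by their labels alone: 3 of Il10-/- mice after 48 hr of O3 and the 4 of Il10-/- mice in air, 2 after 24 hr and 2 after 48 hr. They are 7 of the 26 Affymetrix mouse expression arrays of the series. Il10-/- mice were of the strain labelled B6.129P2-Il10tmlCgn/J (the study's methods write the allele with a digit in place of the letter l) and Il10+/+ mice were C57BL/6. All were males aged 6-8 weeks from 1 supplier, and RNA came from the left lung. O3 was given at 0.3 ppm for 23.5 hr per day. For reference, the same numbers of Il10+/+ arrays at 48 hr of O3 and in air were used, with the Il10-/- arrays of O3 at 24 hr and 72 hr. The deletion is in every cell of the Il10-/- mice, in air and in O3 alike. The design text calls the arrays of a group biological replicates and says no more of the animals behind them.

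IL-10 is a cytokine made by macrophages and lymphocytes that restrains inflammation. It acts through its receptor and the transcription factor STAT3. O3 is an oxidant gas that injures the lining of the airways and of the alveolar ducts, and the injury is followed by inflammation, by antioxidant and acute phase gene expression, and by division of the epithelial cells that replace those lost. The comparison asks which genes had moved in lungs lacking IL-10 after 48 hr, and the Il10+/+ arrays tell whether the same genes moved where IL-10 was present.

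The values are log2 values after Robust Multichip Average (RMA) normalization, and a change is a difference of log2 values. A gene was called when its Benjamini-Hochberg adjusted p from limma was under 0.05 over 12394 genes, with 1 probe set for each gene. The fit pools its estimate of spread over 25 arrays. It leaves out Il10-/- O3 24 hr replicate 2. Over the 20393 probe sets with 1 gene symbol, the correlation of that array with any other was at most 0.87. Among the 7 arrays compared it was at least 0.98. Lung identity was clear on all 7: Sftpc, the surfactant protein C of alveolar type 2 cells, lay between 14.32 and 14.46, and Scgb1a1, the main secreted protein of club cells, between 14.08 and 14.39.

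The targeted gene goes against 1 label. Its probe set had log2 values of 6.59 and 6.29 on the Il10-/- air arrays of 24 hr, and of 3.87 and 6.72 on those of 48 hr. On the 3 arrays of 48 hr O3 it read 7.29, 7.42, and 7.25. On all Il10+/+ arrays it lay between 3.92 and 4.25. The array labelled Il10-/- air 48 hr replicate 1 was thus at the Il10+/+ level, and the other 6 arrays were above it. A probe set that reads higher in the mutant does not measure the protein, and which part of the gene it covers was not used here. The label was kept, and the numbers of called genes, in all and in the main lists, are given with and without this array.

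By more than 1 on the log2 scale, 14 genes on that array lay outside all 3 other Il10-/- air arrays, 6 higher and 8 lower. For the other air arrays this number was 1, 21, and 18. Of the 14 genes, 8 were on chromosome 1, which carries Il10 and 5.71% of the genes tested. The levels of 6 of the 14 genes lay within the range of the Il10+/+ air arrays. Il10 (3.871), Ctse (5.55), and Stk25 (9.955) lay just outside it, where the nearest ends were 3.923, 5.645, and 9.881. The rest, Evi5, Nppa, Rab7b, Taok1, and Wdfy1, lay further outside. Chil1, a chitinase-like protein of macrophages and epithelium, read 12.23 there against 9.46, 9.78, and 9.55 on the others. Ctse, the protease cathepsin E, read 5.55 against 8.81, 8.40, and 7.88. Of the 14 genes, 3 (Chil1, Il10, and Mcm6) were also called between O3 and air. The change of Il10 was 1.45 (SE 0.40, limma adjusted p = 0.0306) with that array. Without it the change was 0.79 (SE 0.12). That array was left out for its Il10 value, so the narrower spread of Il10 follows from the choice and is no separate test. The changes of Chil1 and Mcm6 are given both ways below.

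**Figure D1:**
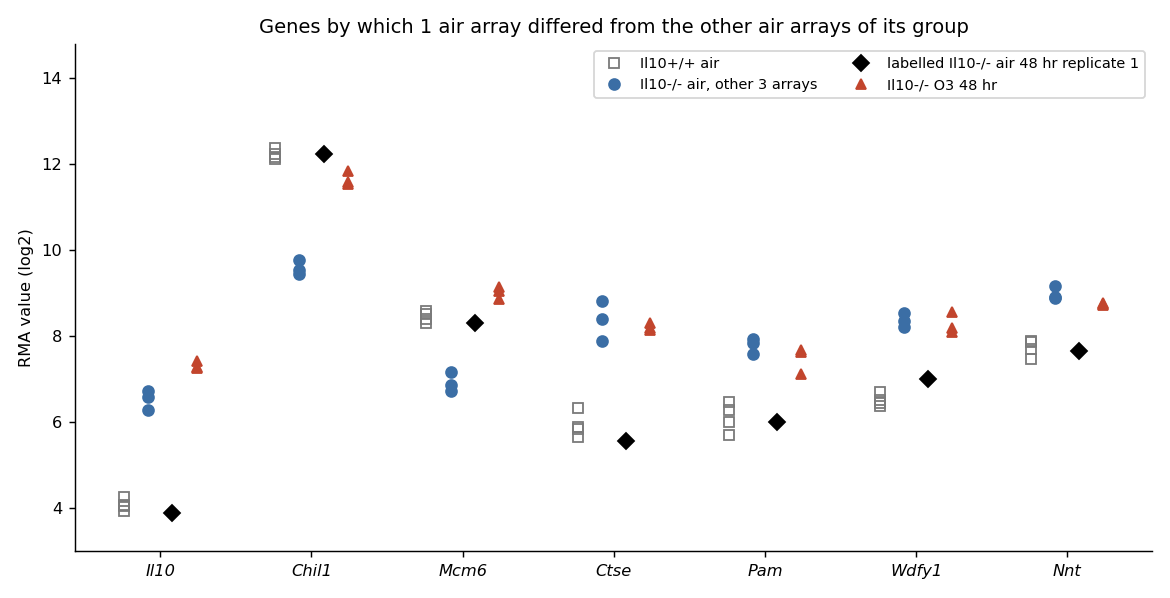
RMA log2 values (vertical axis) of 7 genes on the 4 Il10+/+ air arrays (open squares), the array labelled Il10-/- air 48 hr replicate 1 (black diamonds), the other 3 Il10-/- air arrays (circles) and the 3 Il10-/- arrays of 48 hr O3 (triangles). For Il10 the diamond lies at 3.87 and the other Il10-/- air arrays between 6.29 and 6.72; for Chil1 it lies at 12.23, close to the squares.

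After 48 hr of O3, 501 genes were higher and 284 were lower in Il10-/- lungs than in air. These are 4.04% and 2.29% of the genes tested. The higher genes had a median change of 0.68 and the lower genes one of -0.51. By more than 1 on the log2 scale, 131 were higher and 13 lower, and by more than 2, 23 were higher and 1, Cyp1a1, was lower. The 3 O3 arrays did not overlap the 4 air arrays for 476 of the 501 genes and 273 of the 284, where 8.58% and 7.96% of all genes tested did not overlap upward and downward. The median change over all genes was -0.03.

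Without Il10-/- air 48 hr replicate 1, 358 genes (2.89%) were higher and 176 (1.42%) lower. Of the 785 genes called with all 7 arrays, 514 (65.5%) were called in the same direction without it, 350 higher and 164 lower. A further 20 genes were called only without it. With all 26 arrays in the fit the changes are identical but the shared spread is wider, and 63 genes were higher and 34 lower. Leaving out O3 48 hr replicate 2 gave 295 and 132, and leaving out O3 48 hr replicate 3 gave 151 lower. Without air 24 hr replicate 1, 169 genes were lower. Without O3 24 hr replicate 1 or replicate 3, which enter only through the shared spread, 435 were lower. In bulk lung tissue, fewer cells of a type and less RNA per cell cannot be told apart, and this applies to every change below.

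**Figure D2:**
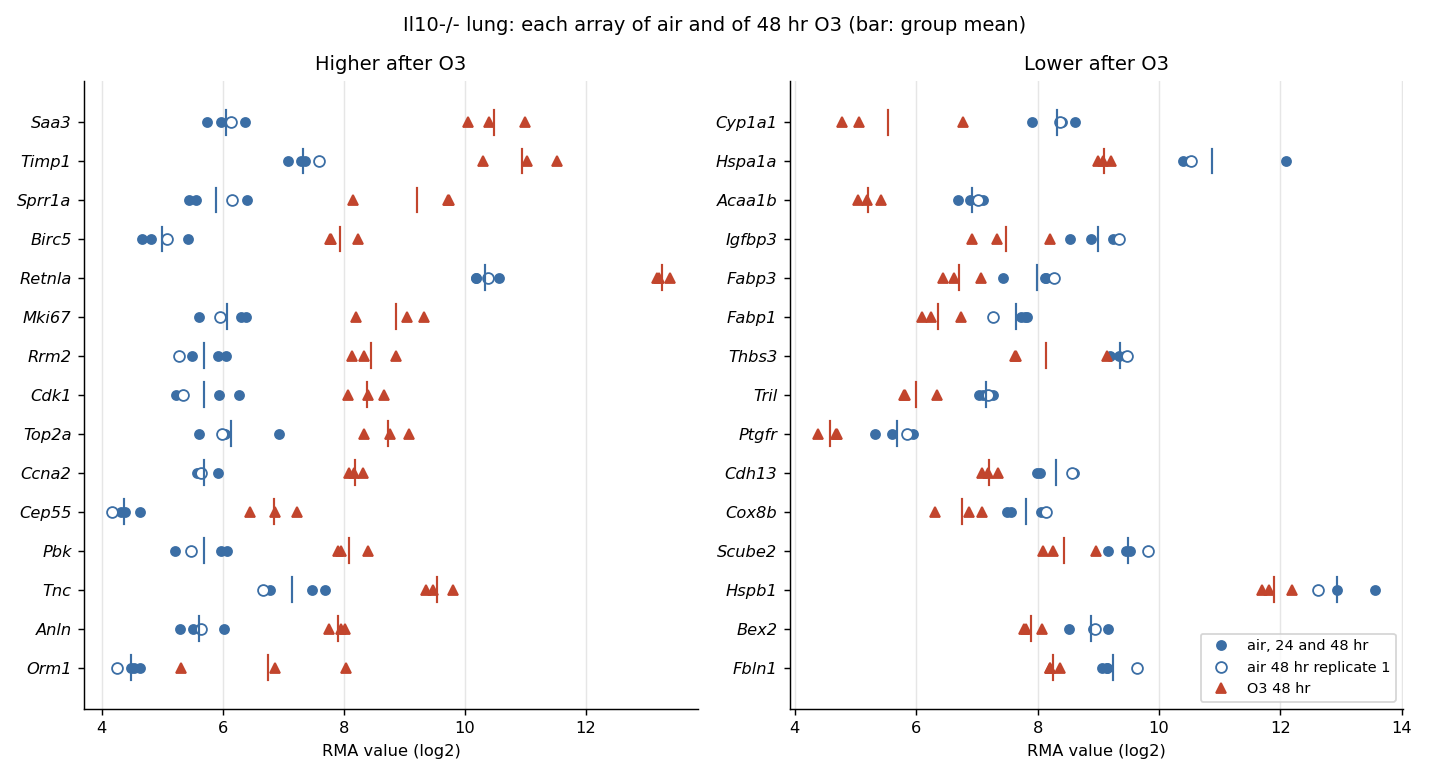
RMA log2 values (horizontal axis) of the 15 genes with the largest increase (left) and the 15 with the largest decrease (right) among called genes whose arrays do not overlap, on each of the 4 air arrays (circles, with air 48 hr replicate 1 open) and the 3 arrays of 48 hr O3 (triangles) of Il10-/- mice, with group means as bars. Saa3 rises from between 5.74 and 6.37 to between 10.06 and 10.99, and Thbs3 on O3 48 hr replicate 1 (9.14) lies just under the lowest air array (9.19).

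Genes of cell division had more calls than any other gene list. Of 41 measured genes of mitosis, 36 were higher, 0 were lower, and the median change was 1.45. Of 30 genes of DNA replication, 24 were higher, 0 were lower, and the median was 0.94. Without air 48 hr replicate 1 these counts were 35 and 22, with medians of 1.41 and 0.93. In the fit of 26 arrays 2 and 0 of them passed the threshold at the same medians.

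Mki67, the proliferation antigen Ki-67, had log2 values of 5.60, 6.31, 5.95, and 6.39 in air and of 9.32, 8.20, and 9.05 after O3. Every O3 array was above every air array, and O3 replicate 2 was the lowest of the 3. The change was 2.79 (SE 0.31), a 6.94-fold increase (limma adjusted p = 6.49e-06). Birc5, survivin, which guides chromosome segregation and cell separation, read 4.67, 4.82, 5.08, and 5.43 in air and 8.24, 7.78, and 7.78 after O3, a change of 2.93 (SE 0.32, limma adjusted p = 5.03e-06). It was the largest change of the group, 7.64-fold.

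Cdk1, whose kinase activity starts mitosis, was between 5.22 and 6.27 in air and at 8.66, 8.07, and 8.40 after O3, a change of 2.68 (SE 0.31). Ccna2, cyclin A2, its partner, was between 5.58 and 5.92 in air and between 8.09 and 8.31 after O3, a change of 2.50 (SE 0.26). Top2a, the topoisomerase that untangles replicated chromosomes, changed by 2.59 (SE 0.27), with air 48 hr replicate 2 (6.93) the highest of the air arrays and still under the lowest O3 array (8.34). Cep55, which acts in the last step of cell separation and is on neither list, changed by 2.47 (SE 0.20, limma adjusted p = 1.99e-07), from between 4.17 and 4.62 to between 6.44 and 7.22.

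Regulators of the end of mitosis moved with them. Cdc20, the activator of the anaphase-promoting complex, was between 6.79 and 7.52 in air and at 9.92, 9.02, and 9.12 after O3, a change of 2.23 (SE 0.42). Ube2c, the ubiquitin-conjugating enzyme of that complex, changed by 2.12 (SE 0.42). Pbk, a mitotic kinase on neither list, changed by 2.41 and Anln, the scaffold anillin of the cleavage furrow, by 2.30. The 5 measured genes of the list that did not pass were Smc4 (0.47), Ncaph (0.44), Cdc25c (0.19), Cenpe (0.12), and Pttg1 (-0.17).

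Among the genes of DNA replication, Rrm2, the regulated subunit of the enzyme that makes deoxynucleotides, was between 5.27 and 6.05 in air and at 8.86, 8.32, and 8.14 after O3, a change of 2.76 (SE 0.39). Tk1, thymidine kinase, read 4.97, 5.05, 4.81, and 5.30 in air and 7.17, 6.93, and 6.94 after O3. The groups are far apart for their narrow spread, and the change was 1.98 (SE 0.16, limma adjusted p = 1.99e-07). Mcm5, a subunit of the replicative helicase, changed by 1.71 (SE 0.23). Another subunit, Mcm6, read 8.31 on air 48 hr replicate 1 against 6.72, 6.85, and 7.16 on the other air arrays, and its change of 1.76 became 2.11 without that array. Its Il10+/+ air arrays lay between 8.30 and 8.58.

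Chromatin genes of S phase rose as well: 10 of 13 were higher (9 without air 48 hr replicate 1) and 0 lower, with a median of 0.78. Uhrf1, which brings the maintenance DNA methyltransferase to new DNA, changed by 1.84 (SE 0.27), with O3 replicate 3 (6.24) below replicates 1 and 2 (7.47 and 7.28). Asf1b, Hells and Chaf1b, a histone chaperone, a remodelling helicase and a subunit of the chromatin assembly factor, changed by 1.41, 1.36, and 1.01. Hat1, the acetyltransferase of newly made histones, read between 7.10 and 7.41 in air and 8.04, 8.31, and 8.43 after O3, a change of 0.97 (SE 0.13, limma adjusted p = 4.94e-05).

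The regulators that act before S phase moved less. Of 21, 5 were higher and 1 lower, also without air 48 hr replicate 1, with a median of 0.18. Without O3 48 hr replicate 1, 3 were higher, and without O3 48 hr replicate 2, 0 were lower. Cks1b and Cks2, small subunits that bind cyclin-dependent kinases, changed by 1.88 and 1.50, and Ccne2, cyclin E2, by 0.79. Ccnd2, cyclin D2, fell from between 10.76 and 11.25 in air to between 10.11 and 10.54 (limma adjusted p = 0.00391), a change of -0.61. Cdkn1a, the inhibitor p21, had a change of 0.07 (SE 0.19), which did not pass.

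Promoters of mitotic genes are known to carry a short element, the cell cycle genes homology region (CHR, letters TTTGAA), next to CCAAT boxes, and 4 genes of the mitosis list are shown for it beside Rrm2, of the replication list, for contrast. Each is the 100 bases before the start of the gene in RefSeq on GRCm38.p6, read 5′ to 3′ along the gene, with TTTGAA (or TTCAAA, its reverse complement) and CCAAT (or ATTGG) in capitals. Cdk1 lies at chr10:69352913-69353012 (minus strand), Kif11 at chr19:37376282-37376381 (plus), Ube2c at chr2:164769829-164769928 (plus), Top2a at chr11:99024190-99024289 (minus), and Rrm2 at chr12:24708154-24708253 (plus).
Cdk1: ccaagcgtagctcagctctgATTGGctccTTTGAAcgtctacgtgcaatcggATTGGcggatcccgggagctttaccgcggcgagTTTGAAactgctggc
Kif11: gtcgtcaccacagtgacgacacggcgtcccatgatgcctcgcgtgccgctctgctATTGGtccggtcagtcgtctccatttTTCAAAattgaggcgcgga
Ube2c: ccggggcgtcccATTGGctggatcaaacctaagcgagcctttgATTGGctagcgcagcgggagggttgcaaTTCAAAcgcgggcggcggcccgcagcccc
Top2a: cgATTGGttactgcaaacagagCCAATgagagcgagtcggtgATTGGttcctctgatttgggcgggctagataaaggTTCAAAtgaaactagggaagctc
Rrm2: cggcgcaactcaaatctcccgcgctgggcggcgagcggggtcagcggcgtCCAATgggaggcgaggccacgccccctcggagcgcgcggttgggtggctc

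Cdk1, Kif11, a mitotic motor that changed by 0.99, Ube2c and Top2a hold the CHR letters near the start on one strand or the other, and Rrm2 holds CCAAT alone in this window. Over the 250 bases before the start, on either strand, TTTGAA was found in 14 of 33 windows (42.4%) of the mitosis members that were higher, which are windows of 31 genes. It was in 1 of 24 windows (4.17%) of the DNA replication members that were higher, in 11.5% of the 12567 windows of genes tested, and in 16.0% of all 32851 RefSeq windows. CCAAT was in 75.8% of the mitosis windows, 58.3% of the replication windows, and 34.7% of the windows of genes tested. It was also in 6 of 6 windows of the sterol synthesis members that were higher. An E2F motif (TTTCCCGC) was in 0 of the 33 mitosis windows, in 2 of the 24 replication windows (8.33%), and in 1.44% of the windows of genes tested. Of the other motifs searched, the antioxidant response core (TGACNNNGC) was in 1 of 9 windows of the NRF2 members that were higher, against 18.2% of the mitosis windows, 20.8% of the replication windows, and 11.3% of the windows of genes tested. An AP-1 motif (TGANTCA) was in 3 of 16 windows (18.8%) of the acute phase members that were higher, against 5.67%. With members that were not higher included, it was in 6 of 28 windows of that list (21.4%). TTTGAA was then in 38.9% of the mitosis windows and 9.68% of the replication windows. No match in the printed windows overlaps another. These are matches of letters, and neither binding nor activity at them was measured.

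**Figure D3:**
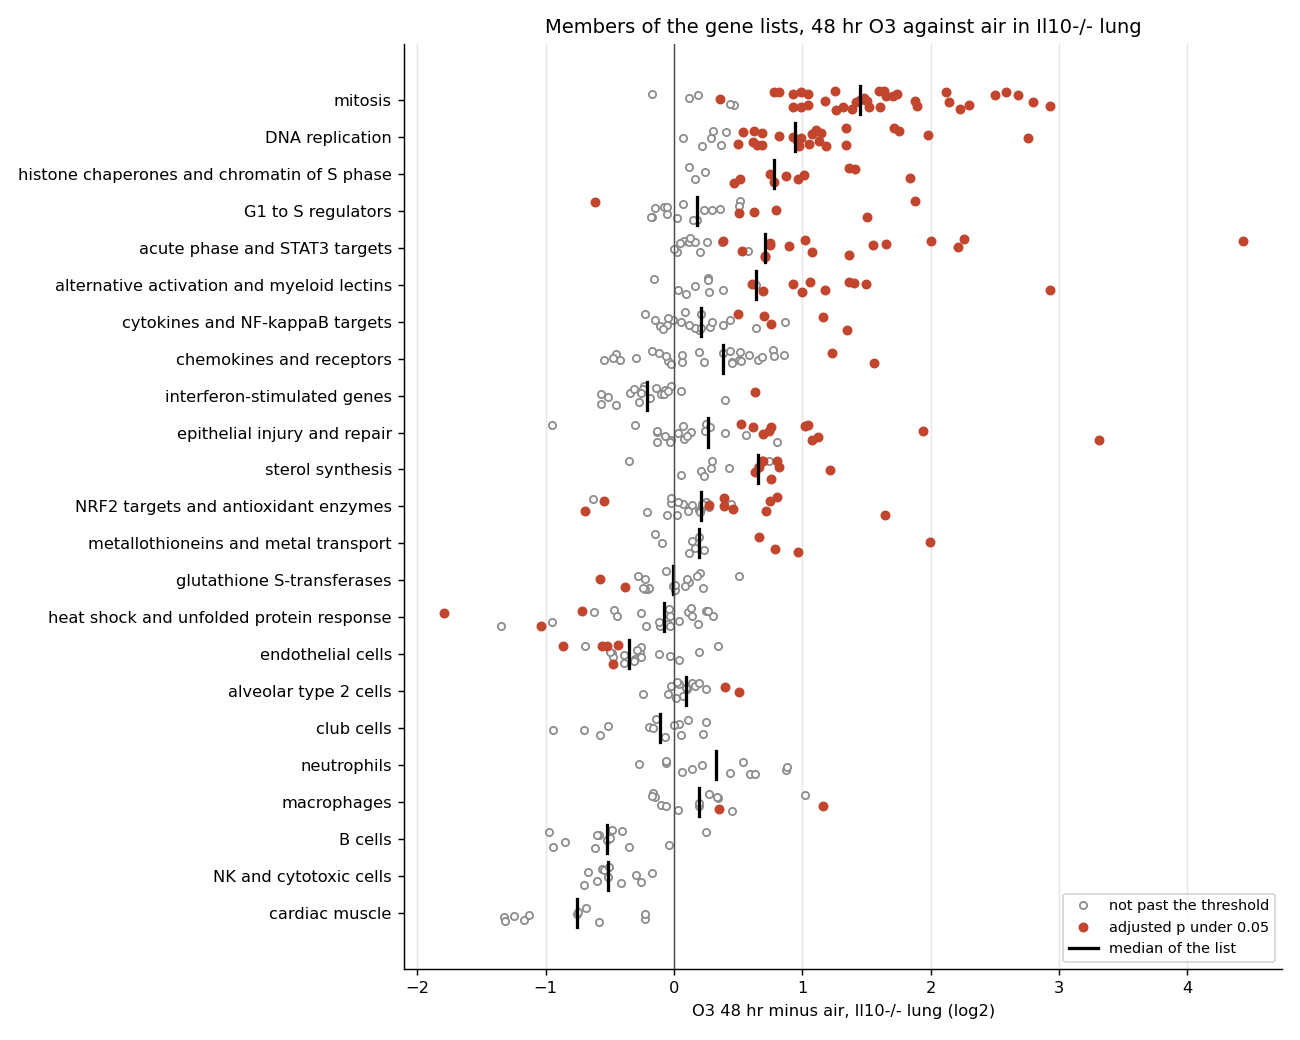
Change from air to 48 hr O3 in Il10-/- lung (log2, horizontal axis) for every measured member of 23 gene lists, with filled points for an adjusted p under 0.05 from limma, open points for the rest, and a bar at the list's median. The mitosis and DNA replication lists sit almost wholly to the right of 0, with medians of 1.45 and 0.94, and the cardiac muscle list sits to the left with no filled point.

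Acute phase genes and targets of STAT3 were the next group, with 16 of 27 higher, 0 lower, and a median of 0.71. Without air 48 hr replicate 1, 14 were higher. Acute phase proteins are secreted during inflammation, chiefly under IL-6 and related cytokines. Saa3, serum amyloid A3, which is made in injured tissue as well as in liver, had the largest change of the 785 called genes. It read 5.74, 5.97, 6.14, and 6.37 in air and 10.41, 10.99, and 10.06 after O3. The groups lie more than 3 log2 units apart, and the change was 4.43 (SE 0.46), a 21.6-fold increase (limma adjusted p = 2.77e-06). Its close relatives Saa1 and Saa2 had changes of 0.58 and 0.07 and did not pass. The array cannot exclude shared signal among such similar transcripts.

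Orm1, the acute phase glycoprotein orosomucoid, read between 4.25 and 4.63 in air and 5.31, 8.04, and 6.87 after O3. The 3 O3 arrays differed by more than 2 log2 units among themselves, and the change was 2.26 (SE 0.37, limma adjusted p = 0.000424). Lcn2, lipocalin 2, which withholds iron from bacteria, was between 9.65 and 9.91 in air and at 11.38, 12.36, and 12.22 after O3, a change of 2.21 (SE 0.21). Lrg1, a secreted leucine-rich glycoprotein, changed by 2.00 (SE 0.25). Serpina3n, a protease inhibitor, changed by 1.65 (SE 0.27), again with O3 replicate 1 (9.80) below replicates 2 and 3 (11.41 and 11.32).

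Socs3, the feedback inhibitor of cytokine receptors that STAT3 induces, read 8.33, 8.45, 8.11, and 8.59 in air and 9.77, 10.11, and 9.88 after O3. No O3 array overlapped air, and the change was 1.55 (SE 0.24), 2.93-fold (limma adjusted p = 0.000205). Il6 itself was low on all arrays, between 4.00 and 4.19 in air and between 4.64 and 5.50 after O3, a change of 0.90 (SE 0.23, limma adjusted p = 0.0177). Lif and Osmr, a cytokine of the IL-6 family and the receptor chain for oncostatin M, changed by 0.75 and 0.71.

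Cytokine and chemokine genes moved little beside these. Of 25 cytokines and targets of NF-kappaB, 5 were higher and 0 lower, with a median of 0.21. Il33, an alarmin stored in epithelial nuclei, read 9.49, 9.46, 9.80, and 9.97 in air and 10.75, 11.22, and 11.12 after O3, a change of 1.35 (SE 0.20, limma adjusted p = 0.000167). Cd14, the co-receptor for lipopolysaccharide, changed by 1.16 (SE 0.14), Il1r2, the decoy receptor for IL-1, by 0.76, Tnfaip2 by 0.70, and Il4ra by 0.50. Il1b just missed the threshold with a change of 0.87 (SE 0.26, limma adjusted p = 0.0503). Tnf, Il1a, and Nos2 had changes of 0.16, 0.00, and -0.09, none past the threshold.

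Of 29 chemokines and their receptors, 2 were higher and 0 lower, with a median of 0.39. Ccl17, a ligand of CCR4 on T helper 2 cells, read between 7.06 and 7.56 in air and 8.48, 8.91, and 9.07 after O3, a change of 1.56 (SE 0.24). Ccr1, a receptor of monocytes and neutrophils, read between 5.79 and 6.41 in air and between 7.23 and 7.73 after O3, a change of 1.23 (SE 0.19, limma adjusted p = 0.0002). Ccl2, the monocyte chemoattractant, had a change of 0.77 (SE 0.23) and an adjusted p from limma of 0.0505. Cxcl2, which attracts neutrophils, had one of 0.19 (SE 0.10). Of 20 genes induced by interferon, 1, Ifit3, was higher (0.63) and 0 lower with a median of -0.21, and without air 48 hr replicate 1 it no longer passed.

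Markers of alternatively activated macrophages and lectins of myeloid cells were higher in 10 of 19 cases (9 without air 48 hr replicate 1) and lower in 0, with a median of 0.64. Retnla, RELM-alpha, a secreted protein of macrophages and epithelium in type 2 inflammation, read 10.18, 10.56, 10.39, and 10.18 in air and 13.18, 13.21, and 13.39 after O3. The O3 arrays agree to within 0.3 log2 units, and the change was 2.93 (SE 0.29), 7.62-fold (limma adjusted p = 1.98e-06). Clec4n, dectin-2, changed by 1.50 (SE 0.33). Mmp12, the elastase of macrophages, changed by 1.37 (SE 0.30), and Arg1, arginase 1, by 1.17 (SE 0.24), with O3 replicate 1 (4.71) near the air arrays (4.27 to 4.55). Chil1 read 11.58, 11.84, and 11.54 after O3, so its change was 1.40 (SE 0.41, limma adjusted p = 0.0442) with the doubted air array and 2.06 (limma adjusted p = 1.15e-06) without it.

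Marker lists of immune cells bear on these genes, and their part in the changes was not tested. Of 12 neutrophil markers 0 passed, with a median of 0.33 and a mean level of 6.13 to 6.62 in air and 6.50 to 6.85 after O3. S100a8, a defining neutrophil gene, read 10.77, 10.27, 8.97, and 9.52 in air and 11.18, 10.24, and 10.02 after O3, so the groups overlapped. Of 15 macrophage markers 2 were higher, Cd14 and Fcgr3 (0.35, not called without air 48 hr replicate 1), with a median of 0.19 and a mean level of 8.87 to 8.95 in air and 9.0 to 9.28 after O3. Without O3 48 hr replicate 1, 5 of these markers were higher. B cell markers (13), T cell markers (15), and cytotoxic cell markers (11) had medians of -0.52, -0.06, and -0.52 and 0 calls. Their air arrays spread widely, from 5.88 to 7.07 in mean level for B cells.

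Genes of epithelial injury and repair were higher in 11 of 30 cases (10 without air 48 hr replicate 1) and lower in 0, with a median of 0.27. Sprr1a, a small proline-rich protein of the cornified envelope that squamous and stressed epithelium makes, read 5.44, 6.39, 6.16, and 5.56 in air and 8.15, 9.73, and 9.71 after O3. It changed by 3.31 (SE 0.46), 9.94-fold (limma adjusted p = 8.14e-05), with O3 replicate 1 the lowest. S100a14, a calcium-binding protein of epithelia, read between 5.54 and 6.21 in air and 7.20, 8.02, and 8.05 after O3, a change of 1.94 (SE 0.26). Sfn, the epithelial 14-3-3 sigma protein, changed by 1.12, and the simple keratins Krt18 and Krt8 by 1.07 and 1.02. Ly6d had the lowest value of the list, -0.95, and did not pass.

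Matrix and protease genes gave the second largest change. Timp1, the inhibitor of matrix metalloproteinases, read 7.08, 7.29, 7.58, and 7.36 in air and 10.29, 11.53, and 11.02 after O3, a change of 3.62 (SE 0.60), 12.3-fold (limma adjusted p = 0.000485). All O3 arrays were more than 2 log2 units above air. Of 26 proteases and inhibitors, 6 were higher (4 without air 48 hr replicate 1) and 1, Timp2 (-0.34), was lower. Leaving out each of the 7 arrays gave 4 to 5 higher. Ctsk, cathepsin K, changed by 1.28 and Adamts4, a protease of proteoglycans, by 1.03. Of 29 collagens and matrix genes, 1 was higher, Tnc, the tenascin C of wounds, by 2.40 (SE 0.47), and 1 was lower, Lama3, a chain of the epithelial laminin, by -0.91. Collagen genes themselves had 0 calls on this list. F3, tissue factor, which starts coagulation, was higher by 1.59 (SE 0.21), from between 7.10 and 7.65 to 8.23, 9.29, and 9.18.

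Markers of the resident epithelium had few calls. Of 15 alveolar type 2 markers, 2 were higher, Muc1 (0.51) and Sftpd (0.40), with a median of 0.10 and a mean level of 12.36 to 12.50 in air and 12.52 to 12.57 after O3. Of 14 club cell markers 0 were called, with a median of -0.11, and of 9 alveolar type 1 markers 1, Cav1, was lower (-0.28), a call lost without air 48 hr replicate 1. The mean level of the type 1 list was 11.66 to 11.76 in air and 11.40 to 11.63 after O3, so the groups did not overlap for either alveolar list. Of 6 ciliated cell markers 1, Tppp3, was lower (-0.74). Among 13 genes of epithelial ion and water transport, 0 passed.

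Antioxidant genes were mixed. Of 29 targets of NRF2 and antioxidant enzymes, 8 were higher and 2 lower, with a median of 0.21, and without air 48 hr replicate 1 these counts were 5 and 2. Leaving out each of the 7 arrays gave 4 to 7 higher, the fewest without O3 48 hr replicate 1, and 1 to 2 lower. Akr1b8, an aldo-keto reductase, had a narrow spread on both sides, at 7.82, 7.92, 7.93, and 7.95 in air and 9.36, 9.78, and 9.50 after O3, and changed by 1.64 (SE 0.15, limma adjusted p = 5.25e-07). Gclc, the catalytic subunit that makes glutathione, changed by 0.81, Sod2, the mitochondrial superoxide dismutase, by 0.75, and Gsr, glutathione reductase, by 0.72 (SE 0.09). Nqo1 and Hmox1, classical targets of NRF2, had changes of 0.41 and 0.19 and did not pass. Ephx1, microsomal epoxide hydrolase, and Aox1, aldehyde oxidase, fell by 0.69 and 0.55 on the log2 scale. Of 19 glutathione S-transferases, 0 were higher and 2 lower, Gstm1 (-0.58) and Gstm2 (-0.38), and 1 was lower without air 24 hr replicate 1, O3 48 hr replicate 1, or O3 48 hr replicate 3.

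Metal-binding genes rose in 4 of 11 cases, in 3 without air 48 hr replicate 1 and in 2 without O3 48 hr replicate 2. Mt2, metallothionein 2, read 8.05, 8.62, 8.35, and 9.46 in air and 10.24, 11.08, and 10.53 after O3, a change of 2.00 (SE 0.33, limma adjusted p = 0.000501). Tfrc, the transferrin receptor, Mt1, and Slc39a14, a zinc and iron importer, changed by 0.96, 0.79, and 0.66. Of 17 genes of sterol synthesis, 8 were higher and 0 lower, with a median of 0.65. Cyp51, the demethylase of lanosterol, changed by 1.21 (SE 0.27), Sqle by 0.82, Idi1 by 0.80, and Hmgcs1 by 0.75. O3 replicate 1 was the lowest for each of these 4 except Hmgcs1. The sterol calls fell to 4 without air 48 hr replicate 1 and to 1 without O3 48 hr replicate 2, were 4 without O3 48 hr replicate 3, and rose to 12 without O3 48 hr replicate 1.

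The largest decrease was that of Cyp1a1, the cytochrome P450 induced through the aryl hydrocarbon receptor. It read 8.41, 7.91, 8.37, and 8.62 in air and 6.76, 4.78, and 5.06 after O3, a change of -2.79 (SE 0.75, limma adjusted p = 0.0268). The O3 arrays spread over almost 2 log2 units, and without air 48 hr replicate 1 the adjusted p was 0.0608. Cyp7b1, which oxidises oxysterols, was higher by 1.68 (SE 0.27), the only other call among 19 P450 and related enzymes.

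Acaa1b, a peroxisomal thiolase, read 6.89, 6.69, 7.02, and 7.10 in air and 5.18, 5.42, and 5.04 after O3, a change of -1.71 (SE 0.33, limma adjusted p = 0.00237). Fabp1 and Fabp3, fatty acid-binding proteins of liver and of heart type, changed by -1.29 (SE 0.28) and -1.29 (SE 0.35). Cox8b, a cytochrome oxidase subunit of heart and brown fat, changed by -1.06. Markers of cardiac muscle were low in the same direction: 11 of 11 had changes below 0, with a median of -0.75 and 0 calls, and their mean level was 7.97 to 8.79 in air and 7.16 to 8.00 after O3. Tnni3, cardiac troponin I, read 8.70, 8.18, 9.13, and 8.44 in air and 7.19, 7.03, and 7.63 after O3. Of 6 adipocyte markers, 1, Cidec (-0.82), was lower, a call lost on leaving out any of the 7 arrays other than air 48 hr replicate 2, with a median of -0.65. The part of these markers in the lower levels of Fabp3 and Cox8b was not tested. Without air 48 hr replicate 1, Fabp3 and Cox8b no longer passed (limma adjusted p = 0.089 and 0.12).

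Endothelial markers were lower in 5 of 22 cases and higher in 0, with a median of -0.35, and 5 were lower without air 48 hr replicate 1 too. Without O3 48 hr replicate 3, 2 were lower, and without O3 48 hr replicate 2 or air 24 hr replicate 1, 3 were. With air of 48 hr alone 2 were lower, and 0 over all 26 arrays. Pecam1, the adhesion molecule CD31, read 11.38, 11.38, 11.27, and 11.22 in air and 10.73, 10.71, and 10.81 after O3. The difference was small but well outside the spread, -0.56 (SE 0.09, limma adjusted p = 0.00031). Cldn5, the claudin of endothelial tight junctions, changed by -0.47 (SE 0.08), and Icam2 and Tmem100 by -0.52 and -0.44. Tie1, a receptor kinase of vessels, changed by -0.87 (SE 0.21), with O3 replicate 1 (10.13) just under the air arrays (10.27 to 10.39) and replicates 2 and 3 at 9.32 and 8.92. The mean level over the list was 10.61 to 10.68 in air and 10.25 to 10.41 after O3.

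Igfbp3, a binding protein of insulin-like growth factors, read 8.87, 8.54, 9.33, and 9.25 in air and 8.20, 7.33, and 6.93 after O3, a change of -1.51 (SE 0.26, limma adjusted p = 0.000586). It was the only call among 11 genes of that axis. Cdh13, T-cadherin, changed by -1.09 (SE 0.17), Ptgfr, the prostaglandin F receptor, by -1.09 (SE 0.21), Tril, an accessory protein of Toll-like receptors, by -1.15 (SE 0.22), and Bex2 by -1.0 (SE 0.14). Thbs3, thrombospondin 3, had 2 O3 arrays at 7.65 and 7.63 and the third, replicate 1, at 9.14, next to air (9.19 to 9.47), for a change of -1.22 (SE 0.32, limma adjusted p = 0.0211).

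Heat shock genes were lower in 3 of 24 cases and higher in 0, with a median of -0.08. Without air 48 hr replicate 1, 2 were lower, and 1 was without air 48 hr replicate 2, O3 48 hr replicate 1, or O3 48 hr replicate 2. Hspb1, the small heat shock protein HSP27, read 12.62, 12.94, 12.61, and 13.56 in air and 11.69, 11.81, and 12.20 after O3, a change of -1.03 (SE 0.19, limma adjusted p = 0.00109). Hspa1a, inducible HSP70, read 12.09 on air 48 hr replicate 2 against 10.39 to 10.54 on the other air arrays, and 9.21, 8.99, and 9.07 after O3. Its change was -1.79 (SE 0.51, limma adjusted p = 0.0397), and the adjusted p was 0.0594 without air 48 hr replicate 1. Hspa1a and Hspa1b are near-identical copies, so their signals may be shared, and Hspa1b had a change of -1.35 that did not pass. Ddit3, the stress transcription factor CHOP, fell by 0.72 on the log2 scale.

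The remaining lists moved little. Of 16 complement genes 2 were higher, C3ar1, the receptor for C3a, by 0.79 and Cfb, factor B, by 0.69, and the call of Cfb was lost without air 48 hr replicate 1. Of the list, 0 were higher without air 24 hr replicate 1, air 48 hr replicate 2, O3 48 hr replicate 1, or O3 48 hr replicate 3. Of 20 targets of p53 and related genes, 2 were higher, Gadd45g (0.69) and Gtse1 (0.50), and 1, Sesn1 (-0.57), was lower. The call of Sesn1 was lost without air 48 hr replicate 1, and 0 genes of the list passed without O3 48 hr replicate 3. Of 21 immediate early genes 1, Ccn1, a matricellular protein, was higher by 0.91. Of 4 mesothelial markers 1, Upk3b (-0.91), was lower. Genes of MHC class II (10), glucocorticoid targets (14), clock genes (17), smooth muscle markers (10), and red blood cell markers (4) had 0 calls in either direction, with medians of -0.18, -0.32, -0.02, -0.15, and -0.18.

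The same 48 hr comparison in Il10+/+ mice called 336 genes higher (2.71%) and 124 lower (1.0%). The test of the difference between the genotypes' responses called 0 genes higher (0.0%) and 0 lower (0.0%), with 272 genes at an unadjusted limma p under 0.05. The median SE of that difference was 0.18 log2 units. Of the 501 genes higher in Il10-/- lungs, 499 had a change above 0 in Il10+/+ lungs and 278 were called there, and of the 284 lower genes, 278 were below 0 and 78 were called. The genes were picked for their change in Il10-/- mice, which favours larger values in that genotype: 418 of the 501 and 259 of the 284 were further from 0 there, with median differences of 0.15 and -0.17.

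**Figure D4:**
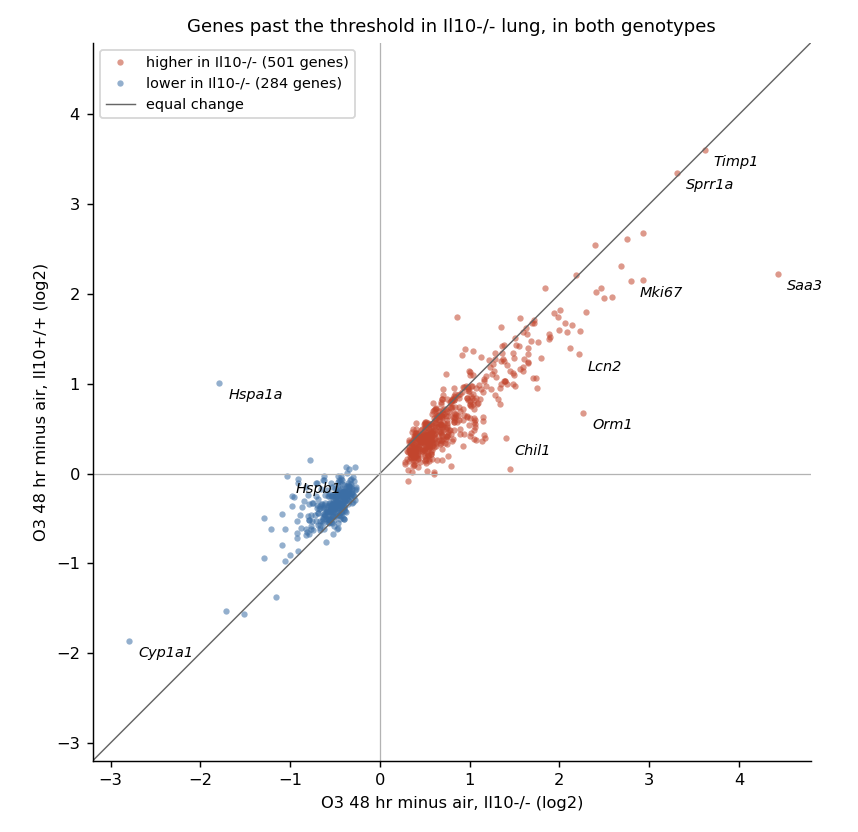
Change from air to 48 hr O3 (log2) in Il10-/- lung (horizontal axis) and Il10+/+ lung (vertical axis) for the 501 genes called higher and the 284 called lower in Il10-/- lung, with the line of equal change. Timp1 and Sprr1a lie on the line, Saa3 lies 2.21 to its right, and Hspa1a lies on opposite sides of 0 in the genotypes.

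Mitosis and replication genes moved in both genotypes. Of the 41 mitosis genes 33 were higher in Il10+/+ lungs, with a median of 1.14 against 1.45, and of the 30 replication genes 22, with a median of 0.75 against 0.94. Mki67 read 8.33, 8.78, and 9.59 on the 3 Il10+/+ arrays of 48 hr O3, overlapping those of Il10-/- mice. Its change there was 2.15, and the difference between genotypes was 0.65 (SE 0.44). The values of Timp1 and Sprr1a were nearly equal in the genotypes, with differences of 0.02 (SE 0.85) and -0.04 (SE 0.65).

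Some acute phase genes differed more between the genotypes, none past the threshold in this fit. In Il10+/+ mice 11 of the 27 were higher, with a median of 0.39 against 0.71. Saa3 read 8.08, 8.17, and 8.45 there after O3, below all 3 Il10-/- arrays, for a change of 2.23, and the difference was 2.21 (SE 0.65, limma adjusted p = 1.0). With array weights it was 2.68 (SE 0.40, limma adjusted p = 0.0128). Orm1 read 4.91, 4.96, and 5.50, and its difference was 1.59 (SE 0.52). Without Il10-/- O3 48 hr replicate 1 it was 2.30 (SE 0.35) and was called (limma adjusted p = 0.0265). The difference of Lcn2 was 0.89 (SE 0.30), and that of Socs3 0.13 (SE 0.33).

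The smallest unadjusted p-values of the difference belonged to heat shock genes, in the other direction. Hspa1b had a difference of -2.40 (SE 0.61), Hspa1a of -2.80 (SE 0.73), and Hspb1 of -1.0 (SE 0.26), each at a limma adjusted p of 1.0. Of the 24 genes of the heat shock and unfolded protein list, 1 had a difference above 0, with a median of -0.63. The list's median change was 0.45 in Il10+/+ lungs, with 21 of 24 above 0 and 1 called higher, and -0.08 in Il10-/- lungs. Their mean level in Il10-/- air ranged from 10.45 to 11.27, and in O3 from 10.45 to 10.57. Neutrophil markers had differences above 0 in 12 of 12 cases, with a median of 0.58 and 0 calls. Their median change was -0.335 in Il10+/+ lungs, with 3 of 12 above 0, and 0.33 in Il10-/- lungs, with 9 of 12 above 0. This lean was not particular to neutrophil markers. Differences were above 0 for 12 of 13 B cell markers, 12 of 15 T cell markers, and 37 of 41 mitosis genes. Their medians were 0.25, 0.23, and 0.31, against 0.004 over all genes. Of 11 cytotoxic cell markers, 3 were above 0. Chil1 passed the test of the difference only when air 48 hr replicate 1 was left out, at 1.67 (SE 0.24, limma adjusted p = 0.00927). Its starting levels differed: Il10+/+ arrays read 12.125 to 12.38 in air and 12.53 to 12.72 after O3. The Il10-/- arrays of 48 hr O3 (11.54 to 11.84) were still below Il10+/+ air. The part of the starting level in this difference was not tested.

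Against the Il10-/- arrays of 24 hr O3, 244 genes (1.97%) were higher at 48 hr and 164 (1.32%) lower. Only 2 arrays of 24 hr enter, and they differ from each other. Saa3 read 10.87 on one and 7.64 on the other, and Timp1 11.53 and 6.79. When only the arrays compared were fitted, 0 genes passed in either direction, with 900 at an unadjusted limma p under 0.05, so these calls rest on the spread shared with other groups. Without O3 24 hr replicate 1 the counts were 694 and 587, and without replicate 3 they were 752 and 384. Without O3 48 hr replicates 1, 2, and 3 in turn they were 164 and 77, 152 and 108, and 179 and 74.

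Of the mitosis genes 34 of 41 were higher at 48 hr than at 24 hr, with a median of 1.42, and of the replication genes 11 of 30, with a median of 0.52. Mki67 read 5.17 and 5.26 at 24 hr, under the lowest air array, and its difference from 24 to 48 hr was 3.64 (SE 0.37, limma adjusted p = 8.75e-06). Tk1 read 6.11 and 5.25, a difference of 1.33. For other genes the 24 hr arrays also disagreed: Rrm2 read 7.50 and 4.57, Cdk1 7.02 and 5.25, and Birc5 6.75 and 4.61. For each of these the first was above every air array. For Anln (5.43 and 5.62) and Top2a (6.43 and 5.49) neither was above the highest air array. Cyp51, at 7.75 and 6.10, differed by 1.17 (limma adjusted p = 0.0461). Other genes stood at 24 hr about where they stood at 48 hr: Socs3 read 10.39 and 10.06, Cd14 10.36 and 10.23, and Mt2 11.72 and 10.13. Among called genes whose arrays did not overlap, the largest decreases from 24 to 48 hr were those of Acaa1b (-2.01), Apod (-1.52), Lipe (-1.45), Angptl4 (-1.43), and Slurp1 (-1.21). At 24 hr Acaa1b read 6.30 and 8.145, Apod 5.98 and 7.76, and Lipe 8.66 and 9.69. The lower Apod value lay next to the highest 48 hr array (5.95) and among the air arrays (5.95 to 6.37). The 24 hr arrays were closer for Angptl4 (9.97 and 9.99) and Slurp1 (7.85 and 8.18). Lipe is the hormone-sensitive lipase and Angptl4 an inhibitor of lipoprotein lipase.

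Between 48 and 72 hr of O3 no gene passed in either direction (0.0% and 0.0%), with 329 genes at an unadjusted limma p under 0.05 and a median SE of 0.13. Mitosis genes had a median difference of -0.08 and acute phase genes one of -0.17. Mki67 read 7.25, 7.96, and 8.56 at 72 hr, a difference of -0.93, and Tk1 6.83, 7.04, and 6.66. Saa3, at 9.70, 9.33, and 10.57, stayed above every air array. Orm1 read 4.92, 5.64, and 5.55, a difference of -1.37 (SE 0.40), which passed only without O3 48 hr replicate 1 (-2.09, limma adjusted p = 0.00372). Among the lower genes, Bex2 read 8.61, 8.49, and 8.42 at 72 hr against 7.81, 8.07, and 7.78 at 48 hr, and Cyp1a1 8.48, 7.15, and 7.55 against 6.76, 4.78, and 5.06. These differences of 0.62 and 2.19 did not pass.

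**Figure D5:**
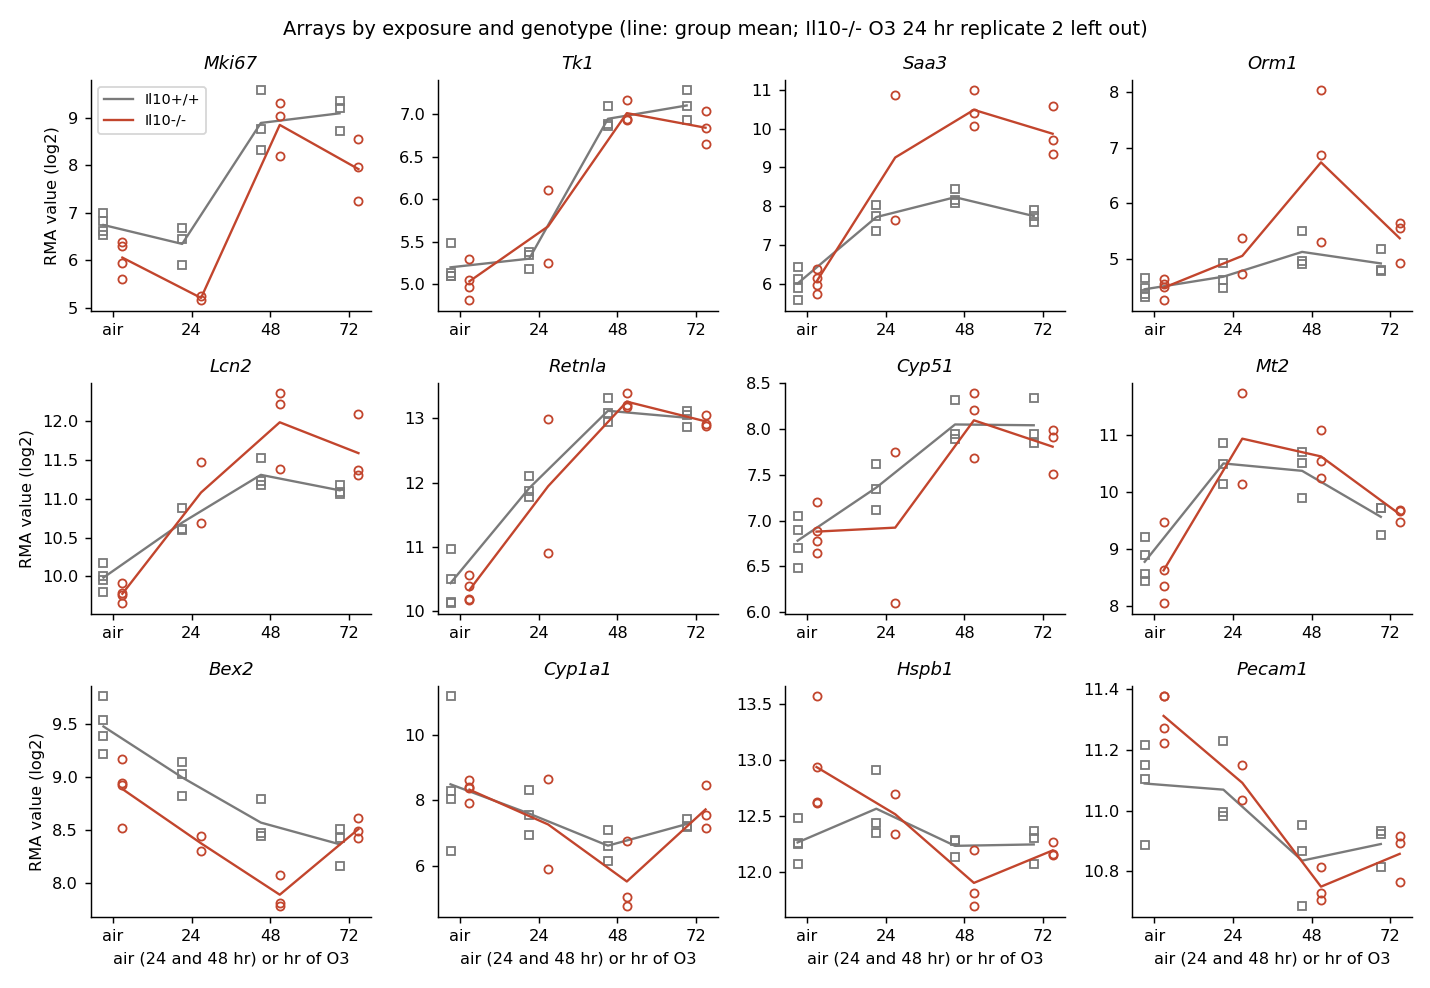
RMA log2 values (vertical axes) of 12 genes in air and after 24, 48, and 72 hr of O3 (horizontal axes) on each Il10-/- array (circles) and Il10+/+ array (squares), with lines through the group means and Il10-/- O3 24 hr replicate 2 left out. Mki67 and Tk1 step up between 24 and 48 hr in both genotypes, and Saa3 and Orm1 reach higher values in Il10-/- mice.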

How the data were processed

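RNA of left lungs was hybridized to 26 Affymetrix arrays. The deposited values are log2 values that the authors computed by RMA (background correction, quantile normalization, median polish), in RMAExpress, whose version is not given in the sources used here. Values were used as deposited. No per-probe background was used, and the number of arrays limits the precision. Of 22690 probe sets, 20393 have 1 gene symbol in the platform annotation of 2016, 691 have several and 1606 are not listed. Where a gene had several probe sets (4958 genes), that of highest mean over all arrays stood for it, and 0 genes had probe sets called both higher and lower. For some called genes the other probe sets did not pass, among them Tnfaip2 (0.25), Fabp1 (-0.84), C3ar1 (0.31), and Sesn1 (-0.11 and -0.03). For others, such as Socs3, Rrm2, and Hspb1, they did.

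Arrays were grouped by their labels, and both air times of a genotype formed 1 group. Group means were fitted with limma 3.58.1 in R 4.3.3 with empirical Bayes moderation over 25 arrays. Per the study's methods 1 array was dropped after clustering. Il10-/- O3 24 hr replicate 2 stands apart and was left out here. Benjamini-Hochberg adjustment covered 12394 genes, with a threshold of 0.05. P-values measure the spread between arrays. The steps were tested on simulated data.

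Members, gene lists and the left-out array were chosen with earlier results of these data known. Genes named are the 15 largest each way among non-overlapping calls, up to 4 called members per list, the 5 largest each way in other comparisons, and genes the paper names. List members that did not pass, further members of short call lists, and genes named as other observations were chosen after their values were seen. Symbols, promoters and chromosomes are from RefSeq (GRCm38.p6), with promoter windows for 9888 of the genes tested. Alternatives were the arrays entering the fit, air of 48 hr alone, the replicate number as a block, array weights, the letter c that ends some source names as a covariate, a filter on the lowest genes, median centring, the mean of probe sets, trend and robust moderation, and leaving out each array. Figures used matplotlib 3.10.9 in Python 3.11.15.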

Additional observations from a re-analysis of the deposited data

Results flagged for a closer look

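For each of 115 named genes, the gap between the highest or lowest of the 4 Il10-/- air arrays and its nearest neighbour was divided by the range and set against Dixon's critical value for 4 arrays. Chance flags about 1 in 20 groups. Of the 115 genes 5 were flagged, a share below 1 in 20, so there were no more flags than chance would give.

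Il10 had a share of 0.85, since air 48 hr replicate 1 read 3.87 against 6.29 to 6.72, which restates the value that drew attention to this array and is no independent test of it. Chil1 had one of 0.883 from the same array, at 12.23 against 9.46 to 9.78, and Fbln1, a matrix protein, one of 0.862, at 9.63 against 9.06 to 9.14. Hspa1a had one of 0.915 from air 48 hr replicate 2, at 12.09 against 10.39 to 10.53. Fabp3 had one of 0.833 from air 24 hr replicate 2, at 7.43 against 8.13 to 8.26. Each of these arrays belongs to the air group from which the changes were taken. The causes were not tested.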

How the results depend on the processing

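Of the genes chosen by the naming rule, 115 in all, 102 were called. These kept their direction under each of the 36 alternatives that tested them. The filter on the lowest genes does not test the genes it removes, and for those it was not counted. Past the threshold in every alternative that tested them were 17, among them Saa3, Timp1, Sprr1a, Cdk1, Cep55, Lcn2, Mmp12, and Akr1b8. Leaving out each array in turn kept 61. Called genes named beyond that rule are not in these counts. The count of higher and lower genes at 48 hr was 63 and 34 over all 26 arrays, 275 and 96 with air of 48 hr alone, 939 and 710 with array weights, and 221 and 67 over 6 arrays without Il10-/- air 48 hr replicate 1. Leaving out each array gave 295 to 707 higher and 132 to 435 lower, the lowest without O3 48 hr replicate 2. For 48 against 24 hr the counts were 106 higher over 26 arrays, 0 and 0 over only the arrays compared, 9 and 0 with array weights, 268 lower with the letter c and 255 lower with median centring, and 152 to 752 higher and 74 to 587 lower when each array was left out. For the genotype difference 1 gene was higher with array weights, and leaving out each array gave 0 to 1 higher and 0 lower. For 72 against 48 hr it gave 0 higher and 0 to 1 lower. Same-numbered Il10-/- arrays had correlations of deviations from their group means between -0.31 and 0.02. Each air time has 2 arrays, whose deviations mirror each other, so these values cannot show whether the replicate numbers pair the arrays. With the replicate number as a block, 572 genes were higher and 307 lower at 48 hr, 315 and 280 against 24 hr, and 0 in the other comparisons. Genes that were not called changed sign as follows. Il1a was 0.0062 with the block, 0.0433 with array weights, 0.0099 with median centring, and -0.0426 to 0.0694 when each array was left out. Leaving out each array gave Ctse -0.1528 to 0.9338, Wdfy1 -0.0844 to 0.4252, Nnt -0.2429 to 0.2613, and Pam -0.3154 to 0.3309, each below 0 only without air 48 hr replicate 1. Cd86 was -0.0533 with array weights, -0.0733 with the letter c, and -0.2819 to 0.2492 when each array was left out, and Nos2 was 0.1027 with the letter c. That letter marks 3 of the 4 air arrays and none of the O3 48 hr arrays, so it cannot be told apart from exposure except through arrays of other groups. Except where the set of arrays alone differs, the cause was not tested.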

Other observations

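Several called genes in none of the gene lists, picked after their values were seen, are given here as single genes and not as groups. After 48 hr of O3 in Il10-/- lungs Slc26a4, the anion exchanger pendrin, changed by 2.19, Pigr, the receptor that carries IgA across epithelium, by 1.50, Tgm1, the transglutaminase of squamous epithelium, by 1.70, and Muc4, a membrane mucin, by 0.94. Their changes in Il10+/+ lungs were 2.21, 1.28, 1.67, and 0.96. The glucose transporter Slc2a1 changed by 0.94, hexokinase 2 (Hk2) by 0.87, the glycolytic enzyme Pgk1 by 0.69, and the hypoxia factor Hif1a by 0.74, against 0.44, 0.65, 0.61, and 0.42 in Il10+/+ lungs. Other genes of glucose use and of hypoxia were not counted. Some may go the other way, as the called gene P4ha1 did, at -0.91 against -0.07 in Il10+/+ lungs. Among the lower genes were Acvrl1, a receptor of bone morphogenetic proteins in vessels, at -0.80, Bmp6, a bone morphogenetic protein, at -0.61, and Ltbp4, which anchors latent TGF-beta in the matrix, at -0.79, against -0.24, -0.46, and -0.52. Txnip, which restrains thioredoxin and glucose uptake, changed by -0.80 against -0.48.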
